A study of Homo sapiens with 6 samples.

Results

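Forkhead box (FOX) genes encode transcription factors that share a winged-helix DNA-binding domain. All 43 genes were taken whose symbol on the array platform is FOX, a letter from A to S and a number, without pseudogenes and antisense genes, out of 18132 genes with a probe set of their own. They have 88 of the 49395 probe sets. The labels describe 6 samples of the human colorectal carcinoma line HCT116: 3 labelled Ctrl with the treatment control, and 3 labelled CSF3 with the treatment CSF3, which encodes granulocyte colony-stimulating factor. All were grown in RPMI-1640 with fetal bovine serum and antibiotics. How CSF3 was given (as protein or by expression) and for how long is not in the labels. Nor do they tell whether samples of a group were separate cultures, so the spread behind the p-values may be partly or wholly technical. The comparison asks which genes differed between the groups, and here how the FOX family did.

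FOX proteins differ in what controls them and in what they do. FOXO factors are held outside the nucleus when insulin and growth factor signalling activates the kinase AKT, and when freed they turn on genes for growth arrest, cell death, stress defence and autophagy. FOXM1 drives genes of mitosis, FOXA factors open chromatin in gut and liver epithelium, FOXK factors repress autophagy genes, and many other members act in one embryonic tissue and are usually silent elsewhere.

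Sequences upstream of the genes were taken from RefSeq (build GRCh38.p14), which gave windows from 250 bases before to 50 after an annotated start for 33 of the 43 genes, 44 windows in all. FOXD4 and its L-numbered copies arose by duplication, and their sequences are shown because the member with the largest rise, FOXD4L5, is one of them. A gap-free stretch of 237 bases before the starts of FOXD4 (chr9:118430-118666, minus strand) and FOXD4L6 (chr9:41128695-41128931, minus strand) differed at 6 positions, in capitals.

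FOXD4: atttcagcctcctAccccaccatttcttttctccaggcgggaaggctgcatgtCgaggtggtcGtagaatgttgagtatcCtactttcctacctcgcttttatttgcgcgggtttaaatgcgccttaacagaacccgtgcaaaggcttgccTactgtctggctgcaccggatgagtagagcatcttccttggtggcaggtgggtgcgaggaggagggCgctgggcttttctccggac

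FOXD4L6: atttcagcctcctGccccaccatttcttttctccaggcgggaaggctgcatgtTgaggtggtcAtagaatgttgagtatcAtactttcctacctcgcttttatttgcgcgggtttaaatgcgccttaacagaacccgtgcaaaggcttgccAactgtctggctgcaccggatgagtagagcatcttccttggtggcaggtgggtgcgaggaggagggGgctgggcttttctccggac

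Of the other pairs of copies, the windows of FOXD4L3 and FOXD4L4 shared an unbroken run of 215 bases. Runs of 87 and 62 were shared by FOXD4L3 with FOXD4L6 and with FOXD4, and a run of 58 by FOXD4L1 and FOXD4L5. Windows of 10 of the 15 pairs shared no run longer than 10 bases, and FOXD4 and FOXD4L5 shared 6. Shared runs lay at unlike places, as from base 86 of the FOXD4L3 and base 1 of the FOXD4L4 window. A window depends on where the start is annotated, so a short run does not show that the upstream sequences differ. The 250 bases before the start of FOXD4L5 (chr9:65285210-65285459, minus strand) have the first bases of the run shared with FOXD4L1 in capitals.

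FOXD4L5: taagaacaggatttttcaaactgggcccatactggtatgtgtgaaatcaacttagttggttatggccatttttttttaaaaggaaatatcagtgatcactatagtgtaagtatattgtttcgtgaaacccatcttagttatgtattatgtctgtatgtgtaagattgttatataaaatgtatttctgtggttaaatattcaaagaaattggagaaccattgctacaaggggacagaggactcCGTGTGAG

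FOXK1 had the largest fall of the family on its brightest probe set (-0.74), while its other probe set rose by 0.76. It has a GC-rich upstream sequence with 1 E-box, the letters CACGTG bound by MYC and TFEB families, in capitals (chr7:4682045-4682294, plus strand). E-boxes were in 3 of the 44 windows (FOXD3, FOXK1 and FOXP4) and in 7.26% of all 35116 windows.

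FOXK1: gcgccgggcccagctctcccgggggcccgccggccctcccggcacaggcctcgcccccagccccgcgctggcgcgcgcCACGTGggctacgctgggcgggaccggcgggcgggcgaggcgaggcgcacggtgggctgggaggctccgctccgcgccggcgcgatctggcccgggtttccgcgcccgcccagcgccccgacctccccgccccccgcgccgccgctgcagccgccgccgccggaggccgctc

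Other motifs were searched on both strands, and each was rare in the family. The forkhead letters TGTTTAC were in 1 window each of FOXO4 and FOXP1 and in 3.42% of all windows. The AP-1 letters TGACTCA, bound by FOS and JUN proteins, were in windows of FOXD4L1 and FOXO3 and in 4.95% of all, and a loose form of the NF-kB site (GGG, any 2 bases, then TTTCC) in those of FOXI1 and FOXN4 and in 1.91% of all. Of the genes with these matches, FOXI1, FOXN4, FOXO3, FOXO4 and FOXP1 were called, and the matches of all but FOXN4 are shown. They have the motif, or its reverse complement, in capitals: those of FOXP1 (chr3:71245254-71245280, minus strand), FOXO4 (chrX:71095864-71095890, plus strand), FOXO3 (chr6:108588660-108588686, plus strand) and FOXI1 (chr5:170105746-170105775, plus strand). A match is a description of letters only.

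FOXP1 forkhead: actatgttatTGTTTACtttaccatac

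FOXO4 forkhead: ccggcgagtgGTAAACAgagacgtcag

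FOXO3 AP-1: gtttttgtggTGAGTCAagctgcagtg

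FOXI1 NF-kB: ggcgccagcgGGAAAGTCCCctccccgtgg

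Arrays of a group were alike, with Pearson's r across probe sets of 0.998 within Ctrl, 0.994 to 0.995 within CSF3 and 0.970 to 0.974 between groups. Weak signals read higher and strong ones lower on the CSF3 arrays: the lower quartile was 2.18 to 2.19 on the Ctrl and 2.40 to 2.43 on the CSF3 arrays. The upper quartile was 5.63 and 5.37 to 5.40. The gap between the 3' and 5' probe sets of GAPDH, a sign of RNA quality, was 0.30 to 0.31 and 0.68. The same gap for ACTB was 1.32 to 1.38 and 1.92 to 1.96. The median of the 102 control probe sets was 3.71 to 3.83 on the Ctrl and 4.82 to 5.08 on the CSF3 arrays. These differences go with the groups, and their part in the results below was not tested. CSF3 itself read 4.83 ± 0.30 and 5.96 ± 0.04 (log2 signal, SD, n = 3) on the brightest of its 3 probe sets. The name of that probe set ends in _x_at, which marks probes that may also bind other transcripts.

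The labelled cell type was checked against 12 markers of colorectal epithelium, of which 4 lay above the median signal of all genes by their mean over the arrays. KRT18 (7.26 ± 0.01 on Ctrl arrays), KRT8 (6.37 ± 0.05), CLDN4 (5.68 ± 0.05) and CDX2 (4.45 ± 0.05) did, whereas EPCAM (3.63 ± 0.05), CDH1 (2.20 ± 0.09), VIL1 (1.43 ± 0.19) and KRT20 (1.79 ± 0.05) were among the 8 that did not. EPCAM and CDH1 define epithelial cells, and their signals were weak, as were those of KRT19 and KRT20 among the 4 keratins. Of the 12, 6 were called higher and 2 lower, KRT8 (to 5.06 ± 0.17 on the CSF3 arrays) and EPCAM (to 3.30 ± 0.10). The summed linear signal of the 12 was 357 to 362 on the Ctrl and 373 to 378 on the CSF3 arrays. For 8 markers of fibroblasts and endothelium, all below the median, it was 54.7 to 57.5 and 84.2 to 84.9, with 7 called higher. For 4 of smooth muscle it was 67.4 to 68.8 and 85.1 to 94.7, with 2 called higher. The 7 markers listed for leukocytes, among them HBB, which marks red blood cells instead, gave 1130 to 1182 and 938 to 981. Most of this signal was CD68 (10.1 ± 0.04 and 9.82 ± 0.04), while PTPRC, which defines leukocytes, read 1.42 ± 0.07 and 1.66 ± 0.20. Of the 7, 5 were called higher, HBB among them, and CD68 alone lower. Among all genes below the median signal 63.6% were called higher and 7.49% lower, and above it 27.1% and 46.8%. The part of any of these marker signals in the results below was not tested.

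FOX genes read higher more often than lower on the CSF3 arrays. Of the 43, 24 rose, 7 fell and 12 were not called (limma, Benjamini-Hochberg adjusted p under 0.05 over all genes). That is 55.8% and 16.3% of the family, against 45.4% of all 18132 genes rising and 27.1% falling, or 72.5% called in either direction. Their median log2 change was 0.26, and that of all genes was 0.16. After quantile normalization, which gives all arrays the same distribution, 15 rose and 5 fell, with a median of 0.12, against 39.2% and 20.1% of all genes and a median of 0.13. FOXD4L5 and FOXB2 were the only members called with a change of at least 1, against 0.645% of all genes rising and 3.37% falling by that much, and no member fell so far. Groups did not overlap for 34 members, or 79.1%, against 76.2% of all genes. Every CSF3 array was above every Ctrl array for 27 of them, against 47.2% of all genes, and below for 7, against 29.1%. Of the 88 probe sets 41 rose and 17 fell, against 36.7% and 28.8% of all probe sets with 1 gene.

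The direction followed the signal. Signals of 26 members lay below the median of all genes, where 18 rose and 0 fell, against 63.6% and 7.49% of all genes there. Above the median, 6 of 17 rose and 7 fell, against 27.1% and 46.8%. A signal depends on the probes as well as on the RNA, so its order is not an order of RNA amounts, and without detection calls a weak signal cannot be told from background. The family's median change was 0.33 among the dimmer members, where all genes had 0.31, and -0.12 among the brighter ones, where all genes had -0.13.

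**Figure D1:**
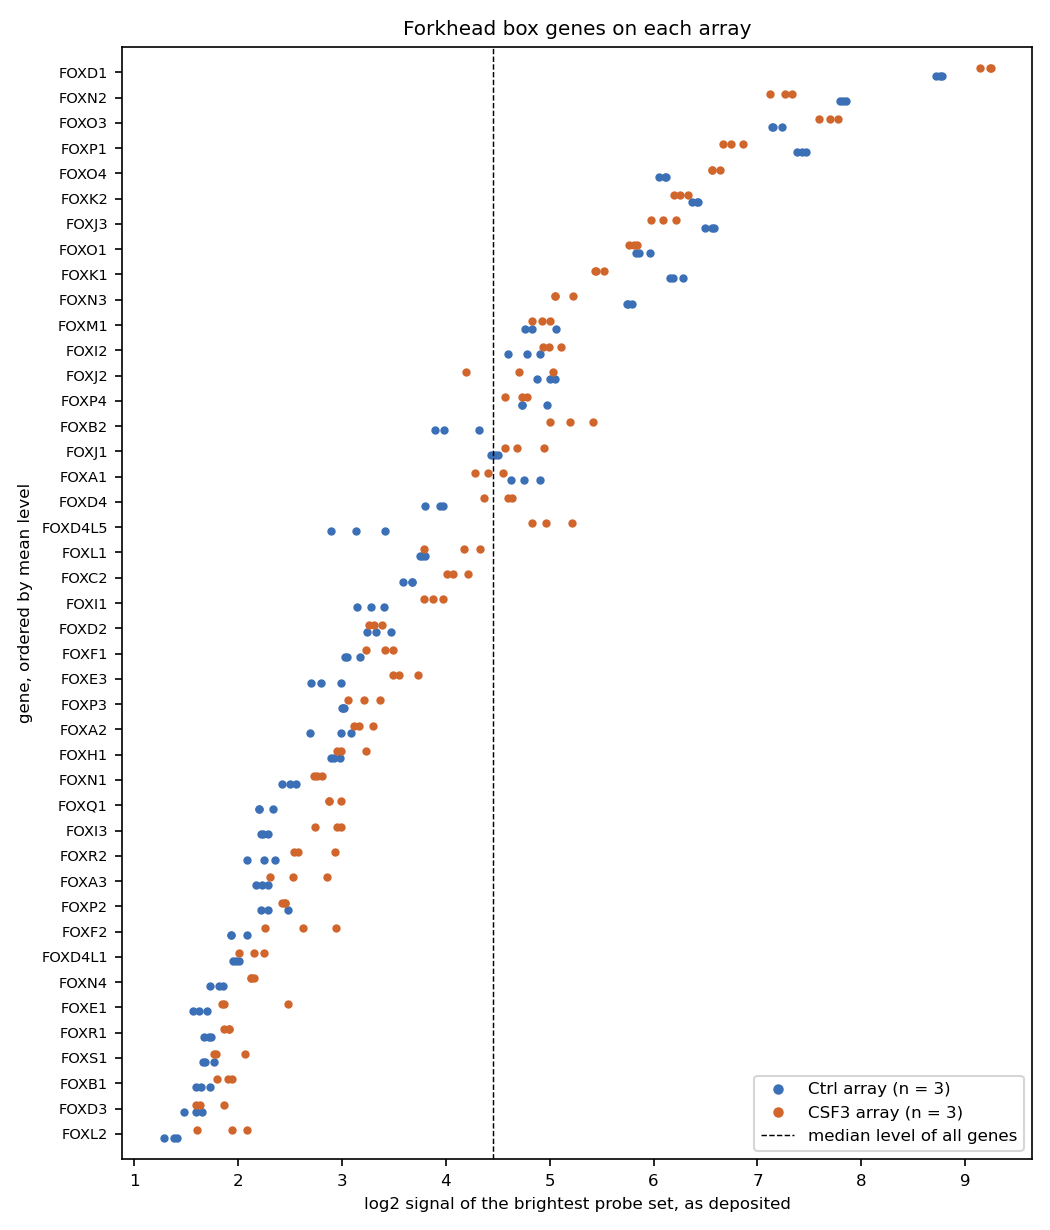
Log2 signal of the brightest probe set of each of the 43 FOX genes (horizontal axis) on the 3 Ctrl and 3 CSF3 arrays, ordered by mean signal, with the median of all genes as a dashed line. FOXD1 has the strongest signals, at 8.72 to 9.24, and 26 genes lie below the median.

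**Figure D2:**
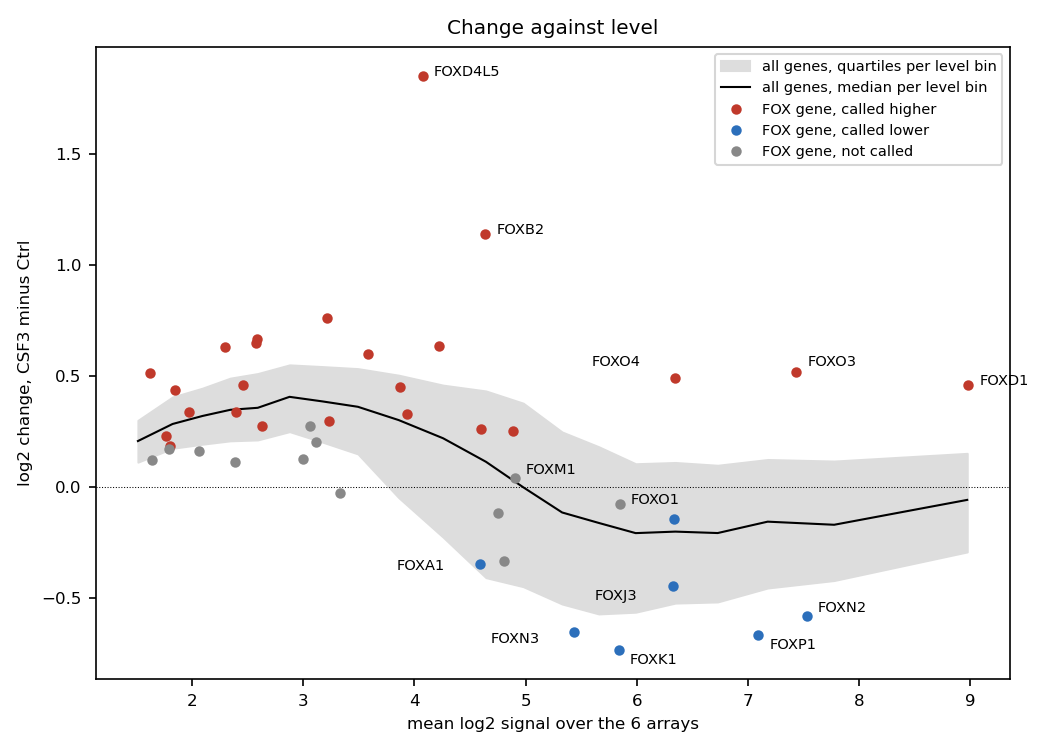
Log2 change of CSF3 minus Ctrl against mean log2 signal for each FOX gene, coloured by the limma call, over the median (line) and quartiles (band) of all genes in 20 bins of equal size by signal. The line lies above 0 at weak and below 0 at strong signals, and FOXO3, FOXO4 and FOXD1 lie above the band at strong signals.

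FOXO genes, the arm restrained by AKT, were split between 2 that rose and 1 that was not called. FOXO3 read 7.24, 7.14 and 7.15 on the Ctrl arrays and 7.60, 7.70 and 7.78 on the CSF3 arrays. Every CSF3 array was above every Ctrl array, a 1.43-fold rise (log2 change 0.52 ± 0.06 SE, limma adjusted p = 0.000400). FOXO4 read 6.05, 6.12 and 6.11 against 6.56, 6.64 and 6.56, again with no overlap, and rose 1.41-fold (0.49 ± 0.05, limma adjusted p = 0.000208). FOXO1, whose protein governs glucose metabolism in liver, read 5.83, 5.97 and 5.86 against 5.81, 5.77 and 5.84, with groups that overlapped (-0.08 ± 0.06, limma adjusted p = 0.247). After quantile normalization FOXO3 and FOXO4 rose by 0.72 and 0.75, and FOXO1 rose by 0.18 (limma adjusted p = 0.0242). Genes near FOXO3 and FOXO4 in signal had median changes of -0.16 and -0.20.

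Probe sets of one FOXO gene differed in size but none fell. Of the 7 for FOXO4, 5 rose, with changes from 0.30 to 0.75, and the 2 dimmest had 0.09 and -0.02. The 3 for FOXO3 alone gave 0.52, 0.45 and -0.07, the last not called, and all 3 have names ending in _x_at, which marks probes that may also bind other transcripts. For FOXO1, 1 of 4 was called, a dim one that rose by 0.28. Averaging all probe sets left FOXO3 and FOXO4 called, at 0.30 and 0.34.

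FOXM1, the driver of mitotic genes, showed no settled direction. It read 4.83, 4.76 and 5.06 on the Ctrl arrays and 4.92, 4.83 and 5.005 on the CSF3 arrays, so the groups overlapped (0.04 ± 0.09, limma adjusted p = 0.707). Another of its 3 probe sets fell by 0.41 (limma adjusted p = 0.00894 over all probe sets), and the mean of the 3 fell by 0.18 (limma adjusted p = 0.0461). On the brightest one the change turned to -0.02 without Ctrl replicate 2 and to -0.0037 without CSF3 replicate 3.

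Members of the FOXK, FOXN, FOXP and FOXJ groups, most of them broadly expressed, made up 6 of the 7 falls. All 7 falls lay above the median signal, where 41.2% of the family and 46.8% of all genes fell. FOXN1, FOXN4 and FOXJ1, of the same groups, rose. FOXK1 read 6.16, 6.18 and 6.28 on the Ctrl arrays and 5.44, 5.44 and 5.53 on the CSF3 arrays, and fell with no overlap (-0.74 ± 0.06, limma adjusted p = 5.57e-05). Its dimmer probe set went the other way, from 4.17, 4.24 and 4.17 to 4.79, 5.14 and 4.94, a rise of 0.76 ± 0.09 (limma adjusted p = 0.000294 over all probe sets). FOXK1 therefore has no settled direction, and the mean of its 2 probe sets changed by 0.01 (limma adjusted p = 0.869). FOXK2, its close relative, read 6.43, 6.37 and 6.42 against 6.25, 6.19 and 6.33. This fall of 0.15 on the log2 scale was small (SE 0.06, limma adjusted p = 0.0477) and was not called after quantile normalization, where the change was 0.11. It was also not called without any one of Ctrl replicates 1, 2 and 3 and CSF3 replicates 1 and 2 (-0.12 to -0.16, limma adjusted p = 0.0787 to 0.134), while its other probe set fell by 0.67.

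FOXN3, linked to the DNA damage checkpoint, fell more evenly. It read 5.76, 5.75 and 5.79 against 5.05, 5.23 and 5.05, with no overlap (-0.66 ± 0.07, limma adjusted p = 0.000140), and 3 of its 4 probe sets were called, all lower, with changes of all 4 from -0.81 to -0.23. Its change was -0.42 after quantile normalization, and genes near it in signal had a median of -0.12. FOXN2 read 7.79, 7.82 and 7.85 against 7.33, 7.12 and 7.26 (-0.58 ± 0.07, limma adjusted p = 0.000269). Its dimmer probe set rose by 0.72 ± 0.10, from 3.76, 3.91 and 3.83 to 4.35, 4.67 and 4.66, so the gene's direction rests on which probe set is read. Genes near FOXN2 and FOXK1 in signal had median changes of -0.17 and -0.21. FOXN1, which builds the thymic epithelium, and FOXN4, of the retina, had weak signals and rose by 0.28 and 0.34, but neither was called after quantile normalization (0.07 and 0.12).

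FOXP1, a repressor needed for lymphocyte and lung development, had the most probe sets and fell on most of them. On the brightest it read 7.38, 7.47 and 7.43 on the Ctrl arrays and 6.86, 6.67 and 6.75 on the CSF3 arrays, a 1.59-fold fall with no overlap (log2 change -0.67 ± 0.06, limma adjusted p = 0.000123). The change was -0.45 after quantile normalization, and genes near it in signal had a median of -0.16. Over its 12 probe sets, 8 fell, 1 rose and 3 were not called, and the changes ran from -1.42 to 0.70. FOXP1 was thus 1 of 4 members, with FOXA1, FOXK1 and FOXN2, called higher on one probe set and lower on another, out of 18 with several, against 14.5% of all 11734 genes with several. RefSeq has 6 start windows for FOXP1, so its transcripts begin at several places, and which transcripts each probe set reads was not determined here. Its relative FOXP4 read 4.73, 4.98 and 4.74 against 4.78, 4.73 and 4.57 (-0.12 ± 0.09, limma adjusted p = 0.250). FOXP3, of regulatory T cells, and FOXP2, of speech circuits, had weak signals, and their changes of 0.20 and 0.11 were not called, although 4 of the 6 probe sets of FOXP2 rose. After quantile normalization the change of FOXP2 was -0.11. The settings that called them higher included leaving out CSF3 replicate 1 for FOXP3 (0.28) and Ctrl replicate 2 for FOXP2 (0.19). Averaging all probe sets also called both higher, FOXP2 at 0.42 and FOXP3 at 0.20 (limma adjusted p = 0.00101 and 0.0445).

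The FOXJ genes went 3 ways. FOXJ3 read 6.56, 6.58 and 6.50 against 6.22, 5.98 and 6.09 and fell with no overlap (-0.45 ± 0.07, limma adjusted p = 0.00125). The fall was smaller after quantile normalization (-0.19, limma adjusted p = 0.0350), and genes near it in signal had a median change of -0.20. FOXJ2 read between 4.88 and 5.05 on the Ctrl arrays and 4.70, 4.20 and 5.03 on the CSF3 arrays, where CSF3 replicate 2 was lowest and CSF3 replicate 3 lay among the Ctrl values (-0.33 ± 0.19, limma adjusted p = 0.145). Without CSF3 replicate 3 it was called lower, at -0.53, but a dim probe set of the same gene rose by 0.64 (limma adjusted p = 0.0143 over all probe sets) and the third was not called (-0.19). FOXJ1, the master regulator of motile cilia, read 4.50, 4.48 and 4.44 against 4.68, 4.57 and 4.94 and rose by 0.26 ± 0.10 (limma adjusted p = 0.0422). That call was lost without any one of the 3 Ctrl arrays or of CSF3 replicates 1 and 3, with changes of 0.15 to 0.28.

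**Figure D3:**
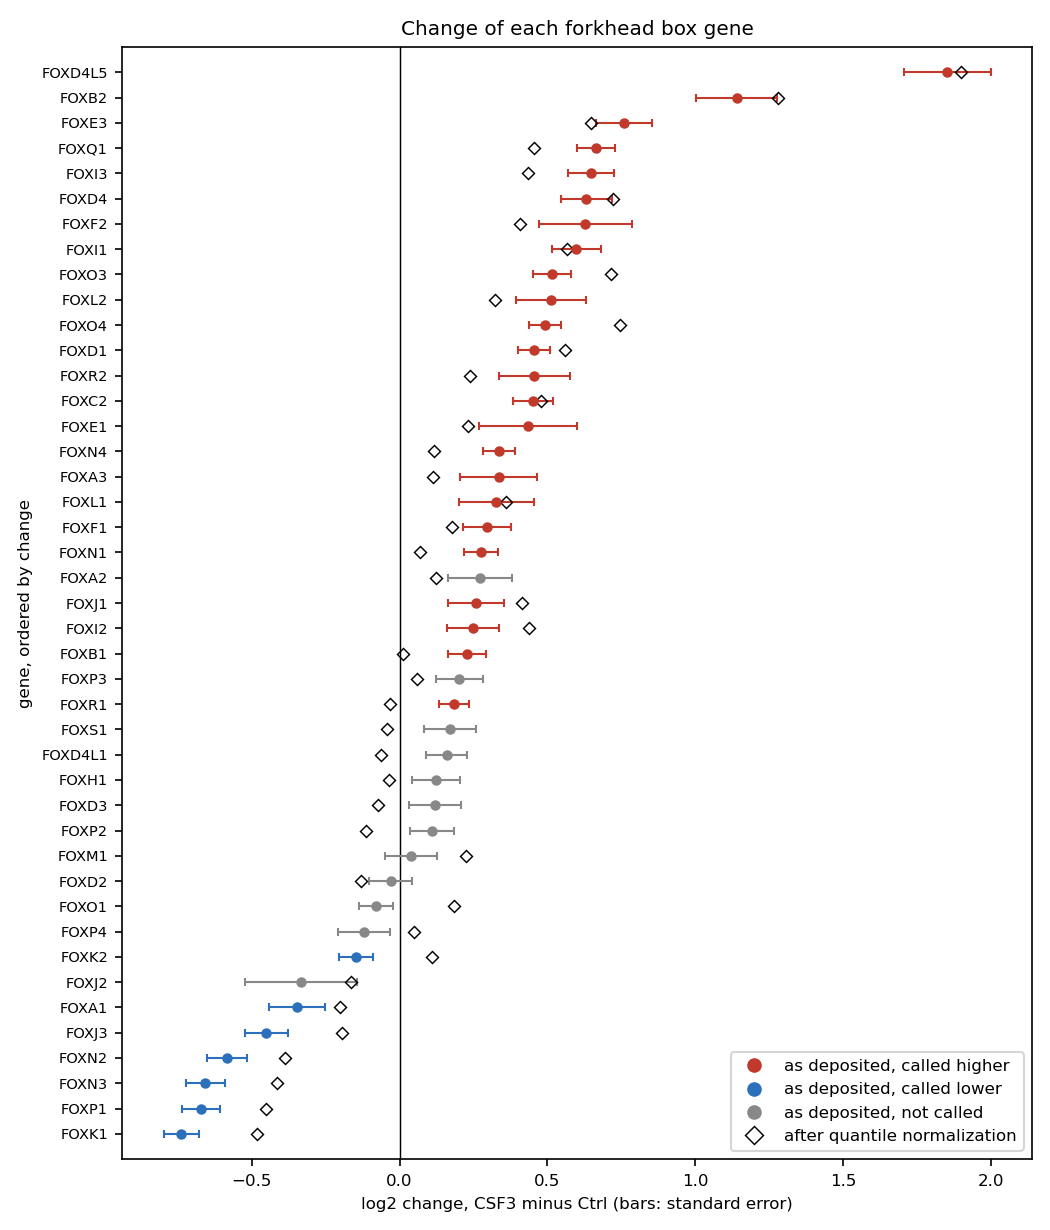
Log2 change of CSF3 minus Ctrl for each FOX gene with its standard error (3 and 3 arrays), coloured by the limma call, with open diamonds for the change after quantile normalization. FOXD4L5 at 1.85 and FOXB2 at 1.14 lead the rises, FOXK1 has the largest fall at -0.74 (0.76 on its other probe set, not drawn), and diamonds on the other side of 0 from their point include those of FOXO1, FOXP4, FOXK2 and FOXD4L1.

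**Figure D4:**
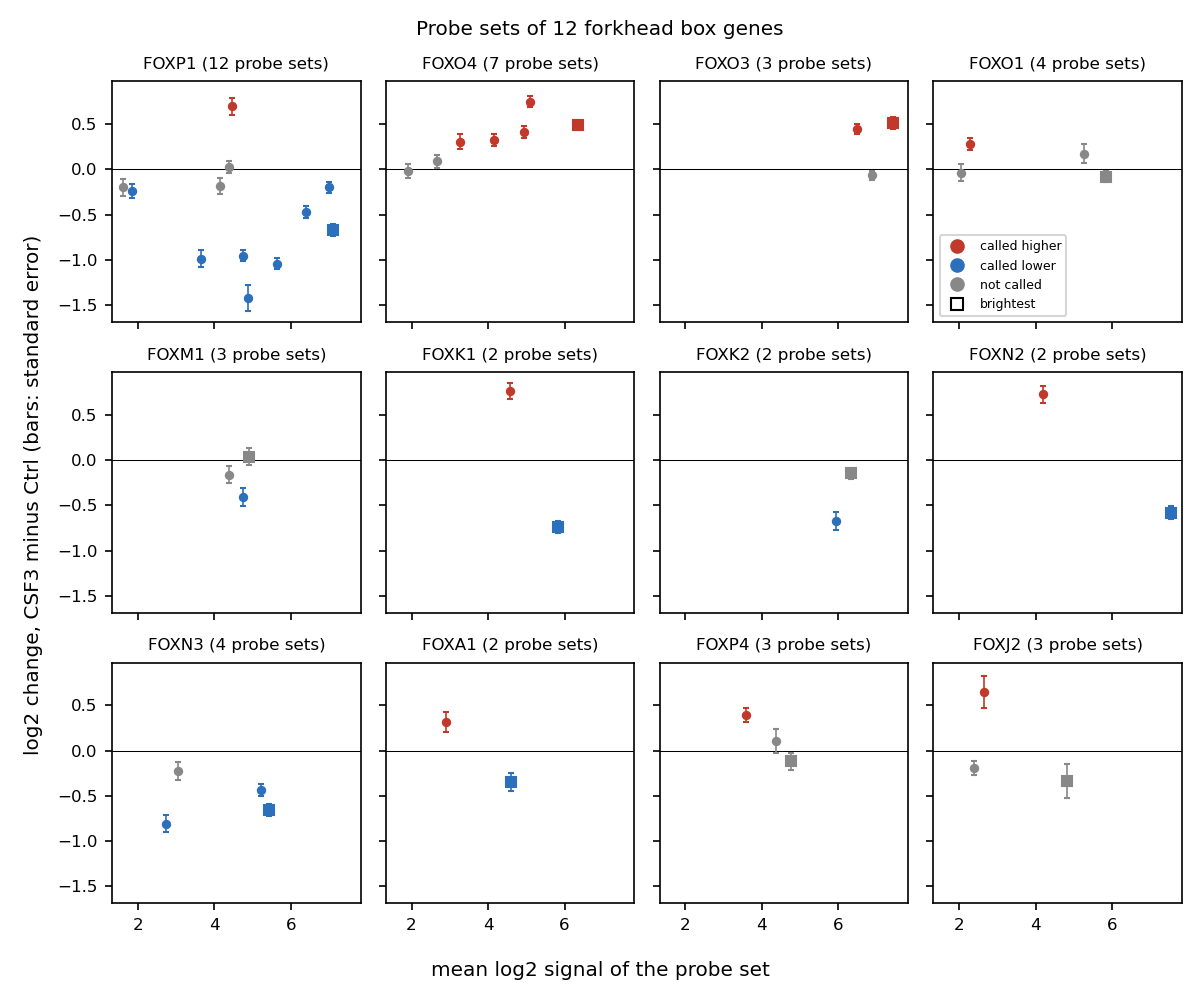
Log2 change of each probe set, with its standard error, against its mean log2 signal for 12 FOX genes, with squares for the brightest probe set of a gene. FOXK1, FOXN2, FOXA1 and FOXP1 have called probe sets on both sides of 0, while the called ones of FOXO4 are all above and those of FOXN3 all below.

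The FOXA genes, pioneer factors of gut and liver, showed no common direction. FOXA1 read 4.91, 4.63 and 4.75 against 4.55, 4.41 and 4.29 and fell with no overlap (-0.35 ± 0.09, limma adjusted p = 0.0129). Its dimmer probe set rose by 0.32 ± 0.11, and after quantile normalization the fall was not called (-0.20, limma adjusted p = 0.106). FOXA2 read 2.99, 2.69 and 3.09 against 3.12, 3.30 and 3.17, which was just short of the threshold (0.27 ± 0.11, limma adjusted p = 0.0536). It was called without Ctrl replicate 3 (0.36), with the 30% dimmest genes left out, with the mean of probe sets and with trend and robust eBayes (limma adjusted p = 0.0288 to 0.0495). FOXA3 rose by 0.34 ± 0.13 from 2.17, 2.23 and 2.29 to 2.53, 2.31 and 2.86 (limma adjusted p = 0.0495), a call that was lost without any array other than CSF3 replicate 2 (0.19 to 0.37). After quantile normalization its change was 0.11 (limma adjusted p = 0.500).

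FOXD1, a factor of kidney stroma, rose at a strong signal. It read 8.72, 8.78 and 8.75 on the Ctrl arrays and 9.24, 9.14 and 9.24 on the CSF3 arrays, with no overlap (0.46 ± 0.05, limma adjusted p = 0.000298). The rise was 0.56 after quantile normalization, and genes near it in signal had a median change of -0.06. FOXQ1, often raised in colorectal cancer, read 2.21, 2.21 and 2.34 against 2.87, 2.87 and 2.99 and rose with no overlap (0.66 ± 0.06, limma adjusted p = 0.000124). Both of its probe sets rose, the other by 0.82. Its signal was weak, and genes near it in signal had a median change of 0.36.

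The FOXD4 copies held the largest rise of the family. FOXD4L5 read 3.41, 2.90 and 3.14 on the Ctrl arrays and 4.96, 5.21 and 4.83 on the CSF3 arrays, with a gap between the groups wider than the spread within either (1.85 ± 0.15, limma adjusted p = 5.49e-05). FOXD4 read 3.94, 3.97 and 3.80 against 4.37, 4.60 and 4.64 and rose by 0.63 ± 0.09 (limma adjusted p = 0.000611). FOXD4L1 read 1.98, 1.95 and 2.01 against 2.01, 2.16 and 2.25, a difference that missed the threshold (0.16 ± 0.07, limma adjusted p = 0.0737). FOXD4L1 was called higher without CSF3 replicate 1 (0.22) and with array weights (0.17), and turned to -0.0609 after quantile normalization. Each of the 3 has 1 probe set named for it alone, with a name ending in _x_at or _s_at, which marks probes that may bind several transcripts. Since the genes are near-identical copies, which of them gave a signal is uncertain. FOXD2 and FOXD3, the latter of the neural crest, had weak signals, and their changes of -0.03 and 0.12 were not called, or -0.13 and -0.07 after quantile normalization.

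Most other members are factors of single tissues, with weak signals and small rises. FOXB2, of the developing brain, read 4.32, 3.90 and 3.98 against 5.42, 5.01 and 5.20 and rose 2.20-fold with no overlap (1.14 ± 0.14, limma adjusted p = 0.000337). FOXE3, of the lens, rose by 0.76 ± 0.10 from 3.00, 2.71 and 2.80 to 3.49, 3.55 and 3.74 (limma adjusted p = 0.000406). FOXI1 and FOXI3, of the inner ear and of ectodermal appendages, rose by 0.60 ± 0.08 (from 3.41, 3.28 and 3.15 to 3.79, 3.97 and 3.88) and by 0.65 ± 0.08 (from 2.22, 2.24 and 2.29 to 2.99, 2.74 and 2.96). FOXC2, of lymphatic vessels, rose by 0.45 ± 0.07. These 5 rises were called after quantile normalization too.

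Other rises were not stable. FOXF2 and FOXF1, of gut mesenchyme, rose by 0.63 ± 0.16 and 0.30 ± 0.08, and neither was called after quantile normalization (0.41 and 0.18). FOXF2 read 1.93, 2.08 and 1.93 against 2.26, 2.63 and 2.94, so its CSF3 arrays were spread out. FOXL2, of the ovary, read 1.39, 1.42 and 1.29 against 1.61, 2.08 and 1.94, the weakest mean signal of the family, and rose by 0.51 ± 0.12, a call lost after cyclic loess normalization (0.31, limma adjusted p = 0.0548). FOXE1, of the thyroid, rose by 0.43 ± 0.16, with 2.48 on CSF3 replicate 3 against 1.87 and 1.84 on the other 2 CSF3 arrays, and its call was lost without any one of the Ctrl arrays (0.40 to 0.47). FOXL1, of the gut stroma, rose by 0.33 ± 0.13 on its brightest probe set although its groups overlapped. That call was lost without any array other than CSF3 replicate 3 (0.21 to 0.34). The dimmer probe set of FOXL1 rose by 0.35 ± 0.07 with no overlap (limma adjusted p = 0.00385 over all probe sets). The mean of its 2 probe sets rose by 0.34 (limma adjusted p = 0.00683). FOXR2, FOXR1, FOXB1 and FOXI2 rose by 0.46, 0.18, 0.23 and 0.25. Of these 4, only FOXI2 was called after quantile normalization (0.44), which turned FOXR1 to -0.03. The call of FOXI2 was lost without Ctrl replicate 1 or 3 or CSF3 replicate 2 or 3 (0.17 to 0.26), that of FOXB1 without Ctrl replicate 1 (0.20) and that of FOXR1 without Ctrl replicate 2 (0.17). FOXS1 and FOXH1, the SMAD partner in Nodal signalling, had uncalled changes of 0.17 and 0.12, which turned to -0.04 and -0.04 after quantile normalization.

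Over all 15 alternative settings, 11 of the 24 rises and 3 of the 7 falls were called in the same direction wherever the gene was measured. The rises were FOXB2, FOXC2, FOXD1, FOXD4, FOXD4L5, FOXE3, FOXI1, FOXI3, FOXO3, FOXO4 and FOXQ1, and the falls FOXJ3, FOXN3 and FOXP1. FOXD4, FOXD4L5 and FOXO3 were not measured without probe sets named _x_at or _s_at, so that setting could not test them. FOXI3 and FOXQ1 were not measured with the dimmest genes left out. In RefSeq's order of coding genes, FOXC2 and FOXL1 are next to each other on chromosome 16, and both rose, whereas of the neighbours FOXE3 and FOXD2 on chromosome 1 FOXE3 alone was called.

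Among 25 measured genes of 30 listed that act on FOXO proteins, 6 rose, 11 fell and 8 were not called, with a median of -0.14. These shares of 24% and 44% were near those of all genes above the median signal (27.1% and 46.8%), where all but 3 of the 25 lay. After quantile normalization 8 rose and 4 fell. SGK1, a kinase that phosphorylates FOXO proteins as AKT does, rose from 4.39 ± 0.07 to 5.66 ± 0.04 (SD, n = 3; 1.26 ± 0.06 SE, limma adjusted p = 9.54e-06). PIK3CB, a catalytic subunit of PI3-kinase upstream of AKT, read 4.76 ± 0.05 and 3.73 ± 0.02 (-1.03 ± 0.05). PRKAA1, of the energy-sensing kinase AMPK, rose by 0.59 ± 0.07, and XPO1, the exportin that carries FOXO proteins out of the nucleus, read 7.21 ± 0.02 and 6.84 ± 0.02 (-0.37 ± 0.05). RNA levels say nothing of the phosphorylation that sets FOXO activity.

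FOXO targets were divided. Of 33 measured out of 34 listed, 16 rose, 8 fell and 9 were not called. The shares of 48.5% and 24.2% and the median of 0.17 were near those of all genes (45.4%, 27.1% and 0.16). Only 9 of the 33 lay below the median signal, and above it 27.1% of all genes rose and 46.8% fell, with a median of -0.13. GADD45A, a growth arrest and repair gene, rose from 9.69 ± 0.04 to 10.6 ± 0.01 (0.94 ± 0.05, limma adjusted p = 1.48e-05), and BCL6, a repressor, rose by 0.88 ± 0.06. ERBB3, a receptor tyrosine kinase that FOXO factors induce, read 5.78 ± 0.11 and 4.53 ± 0.09 (-1.25 ± 0.08), and RBL2, the pocket protein p130, read 6.10 ± 0.02 and 5.06 ± 0.17 (-1.04 ± 0.09). The best known cell cycle brakes among the targets parted: CDKN1A (p21) rose by 0.37 ± 0.05 and CDKN1B (p27) fell by 0.27 ± 0.09 on the log2 scale. The rule does not name these 2, which were picked with their values known. Genes near CDKN1B in signal had a median change of -0.20 (quartiles -0.52 and 0.11), so its fall was within their usual range. Those near CDKN1A had a median of -0.06 (quartiles -0.29 and 0.15). After quantile normalization 19 targets rose and 5 fell, with a median of 0.22.

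FOXM1 targets also went both ways. Of 30, 14 rose, 8 fell and 8 were not called, with a median of 0.06, or 18 higher, 5 lower and 0.29 after quantile normalization. As deposited the shares were 46.7% and 26.7%, against 45.4% and 27.1% of all genes. All but 1 of the 30 lay above the median signal, where 27.1% of all genes rose and 46.8% fell, with a median of -0.13. After quantile normalization 60% of the list rose and 16.7% fell, against 42.7% and 30.4% of all genes there. CKS2, AURKB and CDC20, which drive mitosis, rose by 0.75 ± 0.05, 0.47 ± 0.05 and 0.45 ± 0.06, and ESPL1, the separase that parts sister chromatids, read 7.59 ± 0.07 and 6.93 ± 0.04 (-0.66 ± 0.06). Among 10 genes listed around the MuvB complex, a partner of FOXM1, 3 rose and 4 fell, or 30% and 40%. RBL2 (above), RBBP4 and TFDP1 fell, the last 2 with changes of -0.60 ± 0.05 and -0.61 ± 0.06, and MYBL2 rose by 0.27 ± 0.05.

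The motile cilia genes of the FOXJ1 program had weak signals, 19 of 20 below the median of all genes. Of the 20 measured out of 23 listed, 12 rose and 1 fell as deposited, but 5 rose and 2 fell after quantile normalization. The deposited shares of 60% and 5% were near those of all genes below the median (63.6% and 7.49%). DNAI1 and DNAH9, of the dynein arms, rose by 0.89 ± 0.10 and 0.60 ± 0.08, RSPH9, of the radial spoke, rose by 0.40 ± 0.07, and SPAG16, of the central pair, read 2.91 ± 0.08 and 2.20 ± 0.20 (-0.71 ± 0.10). Partners and targets of FOXA factors resembled them: of 17 measured out of 20 listed, 9 rose and 2 fell, or 5 and 2 after quantile normalization. Below the median lay 13 of the 17, and the deposited shares were 52.9% and 11.8%. SERPINA1 and TTR, liver secretory genes, rose by 0.53 ± 0.07 and 0.50 ± 0.07, CDX2, the intestinal identity factor, rose by 0.34 ± 0.05, and ONECUT2 read 5.31 ± 0.10 and 4.58 ± 0.22 (-0.72 ± 0.11). Adjusted limma p-values of the genes named from these lists were at most 0.00239, apart from CDKN1B (0.0318).

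**Figure D5:**
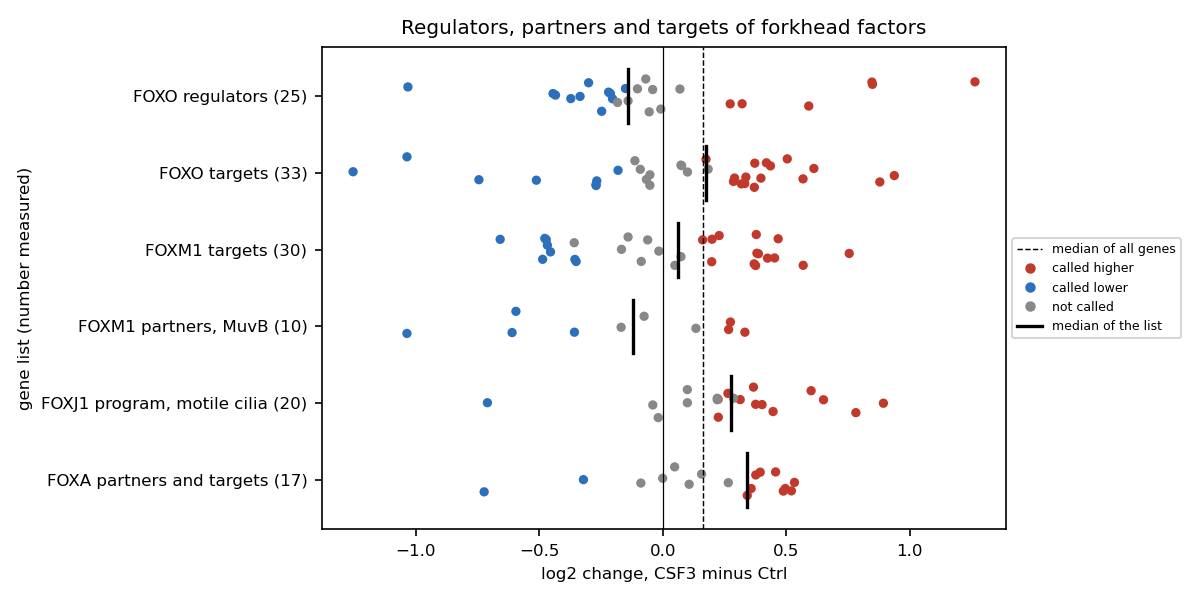
Log2 change of CSF3 minus Ctrl for each measured gene of 6 lists of FOX regulators, partners and targets, coloured by the limma call, with the list's median as a bar and that of all genes, 0.16, as a dashed line. The medians run from -0.14 for FOXO regulators to 0.34 for FOXA partners and targets, and every list holds calls on both sides of 0, with a single fall among the motile cilia genes.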

How the data were processed

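Per the labels, biotin-labelled RNA of 3 Ctrl and 3 CSF3 samples was measured on Affymetrix arrays. The authors deposited 1 value per probe set and array, taken here as log2 from their range of 0.81 to 12.7. The sources used here do not give the log base, background correction, summarisation or scaling. Array means were nearly equal (4.07), but quantiles differed. Another base would change folds, not tests.

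Probe sets with 1 gene in the platform annotation (44988) were kept, those with several (1832) or none (2473) and controls (102) left out, and the brightest stood for its gene. CSF3 minus Ctrl was tested with limma 3.58.1 in R 4.3.3 over all 18132 genes, with no filter or covariate, and called at a Benjamini-Hochberg adjusted p under 0.05. Values are mean ± SD of 3 arrays and changes ± SE. Probe sets were fitted likewise over all 44988. The number of arrays limits the precision. On simulated data with 18132 genes, changes of 0.25, 0.5, 1 and 2 were recovered for 14%, 48%, 88% and 98% of 50 genes each. Of the unchanged genes 5 were called. No other genes changed in the simulation, whereas 72.5% of all genes were called in the data. The adjusted threshold was therefore stricter in the simulation, and its shares do not carry over to the data.

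Named were 18 members fixed by symbol (FOXC1 among them is not analysed here) plus the FOXD4 copies, the 10 largest rises and falls without overlap between groups, other members by range or where a count called for it, and the 4 genes of smallest p per list. Members and lists were chosen with earlier results of these data known. Alternatives were quantile and cyclic loess normalization, array medians, the 30% dimmest genes left out, other choices of probe set, trend and robust eBayes, array weights, a replicate block and each array left out. Sequences are RefSeq's (GRCh38.p14), and motifs were chosen after the files were seen.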

Additional observations from a re-analysis of the deposited data

Results flagged for a closer look

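Probe sets annotated to several FOX genes at once entered no comparison, and 4 of these 8 read higher on every CSF3 array than on any Ctrl array. Of the 5 annotated to FOXO3 together with its near-copy FOXO3B, 3 did so, with log2 differences of 0.740 (7.15 ± 0.02 against 7.89 ± 0.10, SD, n = 3), 0.507 (6.92 ± 0.03 against 7.43 ± 0.03) and 0.510 (5.23 ± 0.07 against 5.74 ± 0.16). The other 2, with differences of -0.03 and 0.08, overlapped between groups. One annotated to FOXD4L3 and FOXD4L6 differed by 0.216 (5.15 ± 0.08 against 5.36 ± 0.05). Of the other 2 shared among FOXD4 copies, 1 differed by 0.23 with overlap. The other, annotated to FOXD4 and FOXD4L1, differed by -0.24 (2.15 ± 0.11 against 1.91 ± 0.13), and every CSF3 array lay below every Ctrl array. None of these 8 probe sets entered a fit, and their differences were not tested.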

How the results depend on the processing

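FOX genes called higher numbered 24 as deposited, 15 after quantile normalization (14 of them among the 24), 13 after cyclic loess normalization and 15 with the 30% dimmest genes left out (27 members then remained). As deposited and after the 2 normalizations, that was 55.8%, 34.9% and 30.2% of the family, against 45.4%, 39.2% and 36.3% of all genes. With the dimmest genes left out, all genes gave 4768 higher and 4883 lower (37.6% and 38.5%), against 8227 and 4921. That setting moved the median of all genes from 0.16 to 0.00. FOX genes called lower numbered 7, or 4 of 39 without probe sets named _x_at or _s_at, where 26.3% of all genes were lower. The family's median of 0.26 became 0.12 and 0.11 under the 2 normalizations, where all genes had 0.13 and 0.10. Leaving out 1 array gave 18 to 23 higher, 6 to 8 lower and medians of 0.20 to 0.28. Of all genes, 38.3% to 43.8% were then higher and 24.4% to 27.3% lower. Under quantile and cyclic loess normalization, FOXO regulators lower fell to 4 and 4, the FOXJ1 program gave 5 and 4 higher with 2 and 2 lower, and FOXA partners and targets gave 5 and 5 higher. Of all genes below the median signal, 35.7% and 31.4% were then higher and 9.76% and 11.3% lower. Above the median, 30.4% and 31.4% were lower. Quantile normalization gave 5 lower among FOXO targets and 5 among FOXM1 targets. With the dimmest genes left out, the FOXJ1 program gave 2 higher and 0 lower of 6 and FOXA partners 3 higher of 7, where fewer genes were measured. Mean probe sets gave 3 FOXO regulators higher and 1 FOXA partner lower. Without _x_at and _s_at probe sets, 9 FOXM1 targets were higher of 27 and 0 of the FOXJ1 program lower.

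Signs turned for some named genes. Quantile normalization gave FOXD4L1 -0.0609, FOXK2 0.11, FOXO1 0.18 and FOXP4 0.0475, and cyclic loess gave -0.0595, 0.0844 and 0.14 for the first 3. Mean probe sets gave FOXJ2 0.0388, FOXK1 0.0106, FOXM1 -0.18, FOXN2 0.0708, FOXO1 0.0860 and FOXP4 0.13. Without _x_at and _s_at probe sets FOXK1 rose by 0.76 and FOXN2 by 0.72, the other probe set of each. FOXM1 gave -0.0240 without Ctrl replicate 2 and -0.0037 without CSF3 replicate 3. Causes beyond the settings' own construction were not tested. The labels do not say whether replicate numbers pair the arrays. Deviations from the group means correlated at 0.02 to 0.03 for same-number arrays and at -0.04 to 0.01 for other pairs between groups. With so few arrays these values cannot tell whether there was pairing. With the replicate block 23 FOX genes were higher and 6 lower, with a median of 0.26.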
